A study of Mus musculus with 4 samples.

Results

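Ddit4, Ddit4l, Sesn1, Sesn2, Sesn3, Deptor and Eif4ebp1 are 7 genes whose products restrain growth signalling by mTORC1 or carry out its effect on translation. They were taken by name from the 21900 protein-coding gene models of the RefSeq annotation of GRCm38.p6, the assembly of mm10, and all 7 matched a symbol. Peaks were those within 1 kb of either end of a gene model, called gene-end peaks here, and those in reach, meaning in the gene body or its flanks of 20 kb. The measurement was ATF4 chromatin pull-down in heart ventricle of mice aged 4 weeks: 2 pull-down samples (replicates 1 and 2), each with a deposited peak list, and a list of 41639 peaks for the series. A further 2 samples were input, sheared chromatin without pull-down, and their values are not analysed here. All samples share tissue and age. Strain, sex and genotype are not given in the sources used here, nor whether the samples came from separate animals, so a spread between them may be technical. For the pull-down samples the labels give AAV as the antibody and do not explain it, and chromatin was captured on streptavidin beads. The sources used here do not say how the captured ATF4 was tagged or expressed. The peaks are therefore those of this preparation and cannot be read as binding at the natural level of ATF4. Peak lists hold no expression values, so the labelled tissue could not be checked against marker genes.

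mTORC1 is a protein kinase complex on the lysosome that promotes protein synthesis and growth when amino acids, growth factors and energy suffice. ATF4 is a transcription factor whose translation rises when kinases of the integrated stress response phosphorylate eIF2 alpha, as under amino acid shortage. Its known targets include genes of amino acid supply and several mTORC1 brakes, among them Ddit4, Sesn2 and Eif4ebp1. Ddit4 (REDD1) and its relative Ddit4l (REDD2) act through the TSC complex, which keeps the activator Rheb in check. The sestrins Sesn1, Sesn2 and Sesn3 bind GATOR2, a complex needed for amino acid signalling to mTORC1, and Sesn2 is a leucine sensor. Deptor binds the mTOR kinase itself. Eif4ebp1 encodes 4E-BP1, which holds the cap-binding protein eIF4E until mTORC1 phosphorylates it. In the heart, mTORC1 is known to drive the growth of cardiomyocytes.

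A series-wide peak lay at a gene end of 5 of the 7 genes: Ddit4, Sesn2, Sesn3, Deptor and Eif4ebp1. Over all protein-coding genes the share was 34.9% (95% exact interval 34.3% to 35.5%). Sesn1 and Ddit4l had none in that window. Each peak carries a fold enrichment, which is the authors' own value for that peak and is used here to describe and rank peaks. The fold is over a constant background, not over input, and the depth behind it is unknown. The strongest gene-end folds were 37.5 at Sesn3, 34.0 at Eif4ebp1 and 26.5 at Ddit4, and those of Deptor (11.0) and Sesn2 (10.6) were lower than the median of 13.3 over the 7644 genes with such a peak. Counting only the top 20% of peaks by fold, at 21.5 or more, 3 of the 7 genes kept a gene-end peak, against 5.66% of all genes. These 3 were Sesn3, Eif4ebp1 and Ddit4. At member peaks the series-wide fold is the higher of the replicate folds. Ddit4 reached 21.5 in replicate 1 alone (26.5, against 19.1 in replicate 2).

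The promoter sequences show where the pull-down summits fell relative to annotated starts. RefSeq promoter sequences of GRCm38.p6 matched 5 members, of which Sesn1 has 2 annotated starts, and none was in the table used for Deptor and Eif4ebp1. The lines below give the 250 bases before the start, 5′ to 3′ on the strand of the gene, for the 4 starts that a series-wide peak covered whole. Capitals mark the 10 bases on each side of every peak summit that fell in the stretch, with the summit base itself. They lie at chr9:14276051-14276300 (Sesn3, plus strand), chr4:132510457-132510706 (Sesn2, minus strand), chr10:41887189-41887438 (the internal start of Sesn1, plus strand) and chr10:59951771-59952020 (Ddit4, minus strand).
Sesn3: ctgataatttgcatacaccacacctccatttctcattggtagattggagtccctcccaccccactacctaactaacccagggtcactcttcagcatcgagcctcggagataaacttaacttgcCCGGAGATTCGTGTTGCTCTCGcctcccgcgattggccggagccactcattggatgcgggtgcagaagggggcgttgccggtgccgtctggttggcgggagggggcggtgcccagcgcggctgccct
Sesn2: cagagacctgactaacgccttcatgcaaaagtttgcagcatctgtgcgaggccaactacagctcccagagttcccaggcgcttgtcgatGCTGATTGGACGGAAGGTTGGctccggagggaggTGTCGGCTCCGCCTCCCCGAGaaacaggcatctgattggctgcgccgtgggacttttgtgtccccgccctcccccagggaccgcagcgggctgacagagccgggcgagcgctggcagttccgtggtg
Sesn1, internal start: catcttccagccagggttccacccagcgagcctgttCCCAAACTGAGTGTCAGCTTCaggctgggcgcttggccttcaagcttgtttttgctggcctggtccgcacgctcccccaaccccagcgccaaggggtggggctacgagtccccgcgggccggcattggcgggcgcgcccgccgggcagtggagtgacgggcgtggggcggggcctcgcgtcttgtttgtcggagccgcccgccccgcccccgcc
Ddit4: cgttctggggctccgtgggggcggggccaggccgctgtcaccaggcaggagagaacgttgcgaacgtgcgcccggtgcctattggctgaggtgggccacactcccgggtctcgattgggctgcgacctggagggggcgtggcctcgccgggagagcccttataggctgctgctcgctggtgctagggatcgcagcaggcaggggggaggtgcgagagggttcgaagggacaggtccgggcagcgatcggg

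At Sesn3 the summits of both replicates lay within 1 bp of each other, so a single stretch is in capitals. At Sesn2 the 2 stretches belong to replicate 2 (the first) and replicate 1 (the second), whose summits were 34 bp apart. The internal Sesn1 start has capitals from replicate 1 alone, since the summit of replicate 2 lay 6 bp after the start. The Ddit4 sequence has no capitals because the summit lay further upstream.

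An exact match to the motifs searched for is rare among all promoters, and none of the 6 member promoters held one. Of these, the Ddit4l promoter and that of the first Sesn1 start were not covered by a series-wide peak. TGATGNAA, a form of the composite C/EBP-ATF element through which ATF4 is known to act, was looked for on both strands of the 300 bases from 250 before to 50 after each start. It occurred in 3.97% of 32851 RefSeq promoters and in 0 of the 6 promoters of the 5 members. TGACGTCA, the palindromic cAMP response element, occurred in 1.79% of all promoters and in 0 of the 6, and TGACGCAA in 0.49% of all promoters and in 0 of the 6. With 1 mismatch allowed, TGATGNAA matched the Sesn2 promoter only, as TCATGCAA from 230 bases before the start and, in reverse complement, as TTGCAGCA from 218 bases before it. Such a match was present in 50.7% of all promoters. These counts concern the 300 bases alone and leave out the rest of each peak.

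The choice of genes did not use the base composition of their promoters, which were all rich in G and C. The content of G and C was 62.7% at Sesn3, 64.7% at Sesn2, 65.7% at Ddit4l, 66.7% and 71.0% at the 2 Sesn1 starts and 69.0% at Ddit4, all above the median of 52.7% over RefSeq promoters. CCAAT, the box bound by the factor NF-Y and not shared by all member promoters, was looked for on both strands after the sequences had been seen. Sesn3 held 4 copies, Sesn2 and Ddit4 held 2 each, each Sesn1 start held 1 and Ddit4l held 0. At least 1 copy was present in 37.4% of all promoters, at least 2 in 11.7% and at least 3 in 3.37%. Every copy read ATTGG on the strand of the gene, and at Sesn2 one of them lies in the first stretch of capitals. A letter match does not by itself mark a bound site.

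**Figure D1:**
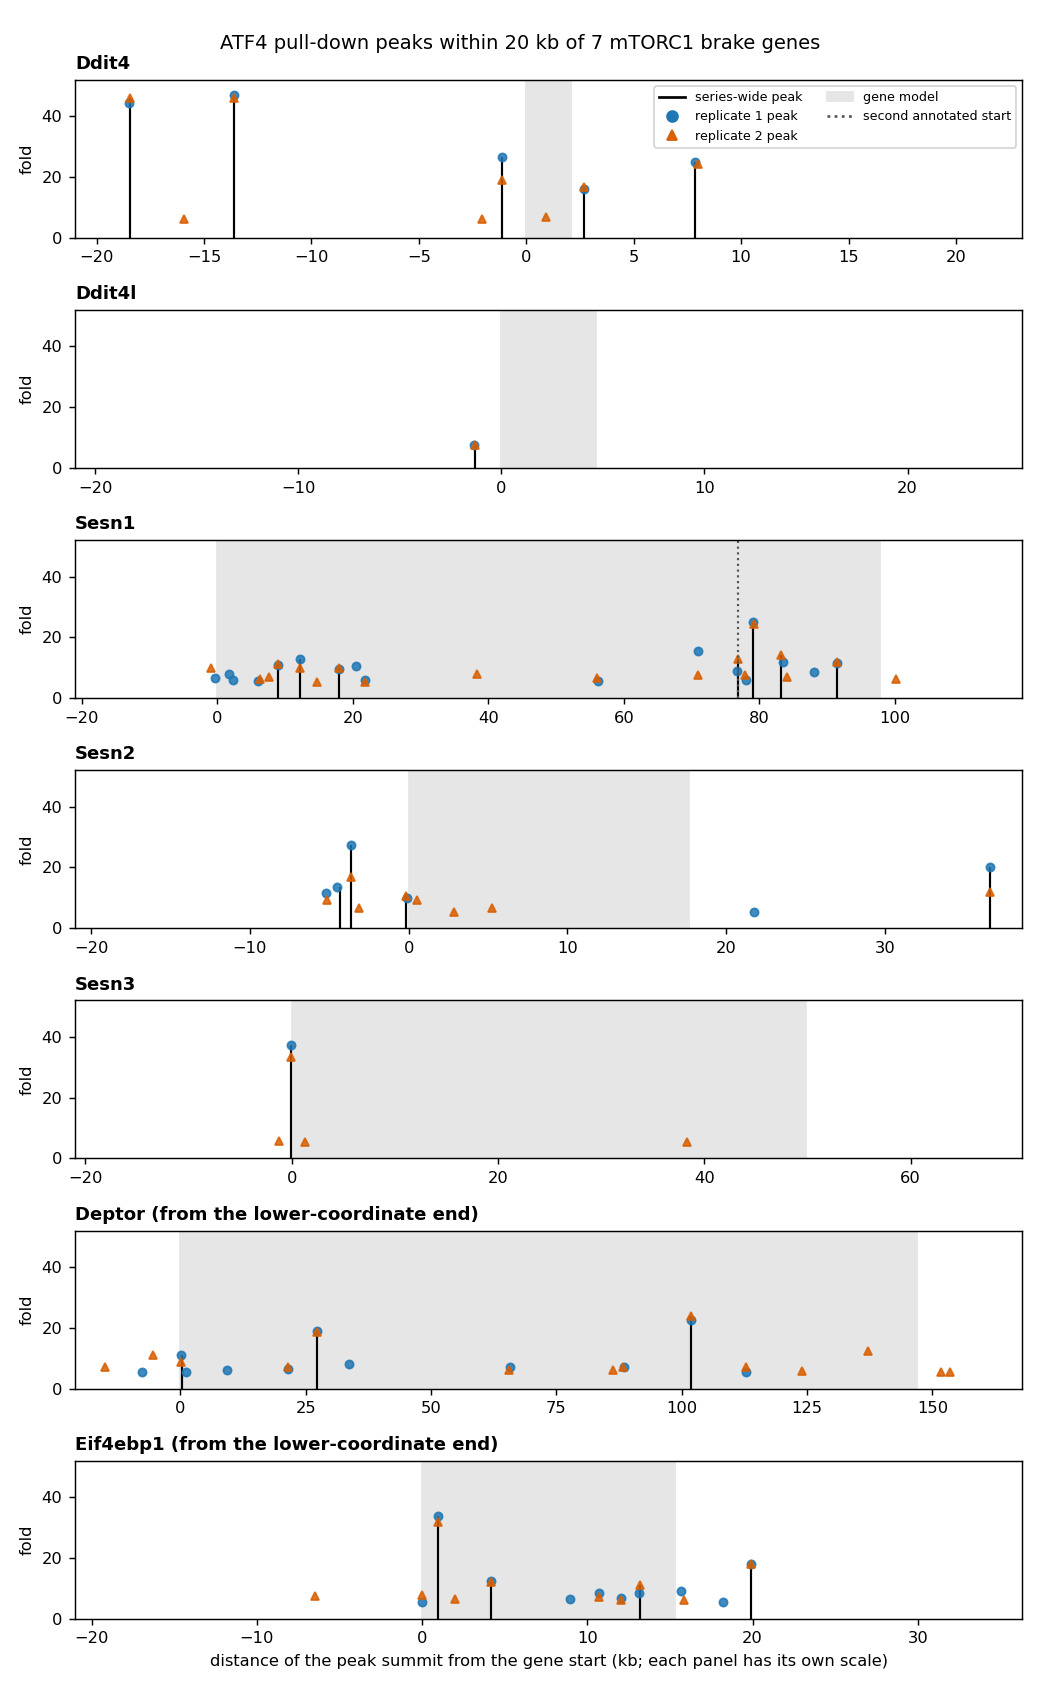
Fold enrichment of every peak within 20 kb of each of the 7 genes (vertical axis) by distance of its summit from the gene start in kb (horizontal axis), with black lines for series-wide peaks, circles for replicate 1, triangles for replicate 2, a grey band for the gene model and a dotted line for the second annotated start of Sesn1. Ddit4 carries its highest peaks, 47.0 and 46.1, upstream of the gene, Sesn3 has 1 series-wide peak at its start, and Sesn1 and Deptor have theirs mostly inside the gene.

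Ddit4 had the strongest peaks of all members, and they lay outside the gene. Within 20 kb of this short gene (2.10 kb, chromosome 10, 59949675 to 59951770, minus strand) there were 5 series-wide peaks. The highest, at 59964993 to 59965716, had its summit 13613 bp upstream of the start and a fold of 47.0 in replicate 1 and 46.1 in replicate 2 (46.6 ± 0.639, SD, n = 2). The replicate summits of that peak were 1 bp apart, and 1.56% of series-wide peaks had a higher fold.

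A further upstream peak, at 59969632 to 59970899, had 44.5 in replicate 1 and 46.1 in replicate 2 (45.3 ± 1.13, SD, n = 2). Its summit lay 18466 bp upstream of Ddit4, and the nearest protein-coding gene was Anapc16, at 16510 bp. The peak over the Ddit4 start, at 59951427 to 59953255, was 1829 bp wide and had 26.5 in replicate 1 and 19.1 in replicate 2 (22.8 ± 5.26, SD, n = 2). It covered the start, but its summit was 1132 bp upstream in replicate 1 and 1135 bp upstream in replicate 2. A peak at the other end of the gene had 16.0 and 16.8, and another, with its summit 7870 bp downstream of the start, had 25 and 24.4 in replicates 1 and 2. Each of the 5 peaks of Ddit4 was above the median fold of the series-wide list (13.7). With 11.9 peaks per 100 kb of gene and flanks, Ddit4 was more densely covered than all but 2.11% of protein-coding genes, whose median was 1.99 per 100 kb.

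Ddit4l, by contrast, had 1 weak peak. It lay at 137622107 to 137622444 on chromosome 3, 1228 bp before the start of the gene (137623672 to 137628332, plus strand) and so outside the gene-end window. The fold was 7.5 in replicate 1 and 7.54 in replicate 2 (7.52 ± 0.0248, SD, n = 2). The lowest fold of the series-wide list was 7.5, and 99.0% of its peaks were higher. Whether these paralogs differ was not tested, since the folds describe single peaks and the design holds 2 samples of 1 group.

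The 3 sestrin genes differed in where their peaks lay. Sesn3 (chromosome 9, 14276301 to 14326134, plus strand) had a single series-wide peak in reach, at 14275716 to 14276366. Its fold was 37.5 in replicate 1 and 33.2 in replicate 2 (35.4 ± 3.01, SD, n = 2), with summits 117 bp and 116 bp before the start. The deposited −log10 values of these peaks were 106 and 98.5. Of the genes with a gene-end peak, 3.44% had a higher fold than Sesn3. The rest of this 49.8 kb gene and its flanks held 3 weak peaks, between 5.32 and 5.76, in replicate 2 alone.

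Sesn2 (chromosome 4, 132492804 to 132510456, minus strand) had a modest peak at its start and a stronger one upstream. The start peak, at 132510323 to 132510851, had 10 in replicate 1 and 10.6 in replicate 2 (10.3 ± 0.451, SD, n = 2), and 73.8% of genes with a gene-end peak had a higher fold. The upstream peak, at 132513951 to 132514238, had 27.5 in replicate 1 and 16.8 in replicate 2 (22.2 ± 7.54, SD, n = 2). Its summits were 3641 bp and 3639 bp before the start.

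The samples therefore placed this peak within 2 bp while differing in its height. Beside it, a peak 3926 bp from the gene had 13.5 and 9.31 in replicates 1 and 2, with summits 646 bp apart. Replicate 1 had a further peak there, at 11.5 and nearer the summit of replicate 2. The ratio below uses the 13.5. The fourth peak in reach, 18873 bp beyond the other end of the gene, had 20.0 and 12.0, and its nearest gene was Med18. Replicate 2 was lower than replicate 1 at all 3 of these distal peaks, with ratios of 0.612, 0.689 and 0.598. Over the 40643 series-wide peaks found in both replicates the median ratio was 1.03 (quartiles 0.886 and 1.21).

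Sesn1 (chromosome 10, 41810574 to 41908436, plus strand) had 7 series-wide peaks, all inside the gene and away from its ends. The strongest, at 41889514 to 41890160, had 25 in replicate 1 and 24.4 in replicate 2 (24.7 ± 0.440, SD, n = 2). It lay beyond the second annotated start, which is 76.9 kb into the gene model. That start was itself covered by a peak at 41887072 to 41887818, with 9.0 in replicate 1 and 12.9 in replicate 2 (10.9 ± 2.73, SD, n = 2). Counting annotated starts in place of gene ends, 4 of the 5 members with a start in the table had a peak of the series-wide list at a start (within 1 kb of it), Sesn1 included, against 35.4% of 17492 genes.

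At its first start Sesn1 had a peak in each replicate list but none in the series-wide list. The fold was 6.50 in replicate 1 and 9.75 in replicate 2 (8.13 ± 2.30, SD, n = 2). The Cep57l1 model is on the opposite strand, and its start, at 41809868, lies 706 bp away. The peak of replicate 1 overlapped Cep57l1 and stopped short of the Sesn1 model, and that of replicate 2 overlapped both genes. Another Sesn1 peak that the series-wide list leaves out, with its summit 70986 bp into the gene in replicate 1, had 15.5 there and 7.54 in replicate 2.

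Deptor, the member whose product binds the mTOR kinase, is the longest of the 7 (147 kb, chromosome 15, 55112317 to 55259273) and had 3 series-wide peaks. The table used gives no strand for Deptor, so distances are from its lower-coordinate end. A peak at that end, at 55112236 to 55113702, had 11.0 in replicate 1 and 8.87 in replicate 2 (9.93 ± 1.51, SD, n = 2). Higher folds were found inside the gene. The peak at 55213936 to 55214411 had 22.5 and 23.9 (23.2 ± 1.02, SD, n = 2), and the peak at 55139117 to 55139918 had 19.0 and 18.6 (18.8 ± 0.272, SD, n = 2). In both, the replicates differed little (ratios of 1.06 and 0.980), and the summits were 22 bp and 18 bp apart. With 1.6 peaks per 100 kb Deptor was covered less densely than 56.4% of genes.

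Eif4ebp1 (chromosome 8, 27260327 to 27275656), the effector gene among the members, had its strongest peak just inside the lower-coordinate end, and its strand is also not in the table. The peak, at 27260575 to 27261707, had 34.0 in replicate 1 and 31.9 in replicate 2 (33.0 ± 1.48, SD, n = 2), with −log10 values of 92.8 and 93.2. The summits lay 951 bp and 958 bp inside the gene, and 4.71% of genes with a gene-end peak had a higher fold. A separate, weaker peak sat on the end itself in both replicate lists, with 5.50 and 7.98, and was not in the series-wide list. Of the other 3 series-wide peaks, the one 4390 bp beyond the gene was highest, at 18.0 and 18.2 in replicates 1 and 2, and those inside the gene had 12.5 and 12.0, and 8.5 and 11.1.

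**Figure D2:**
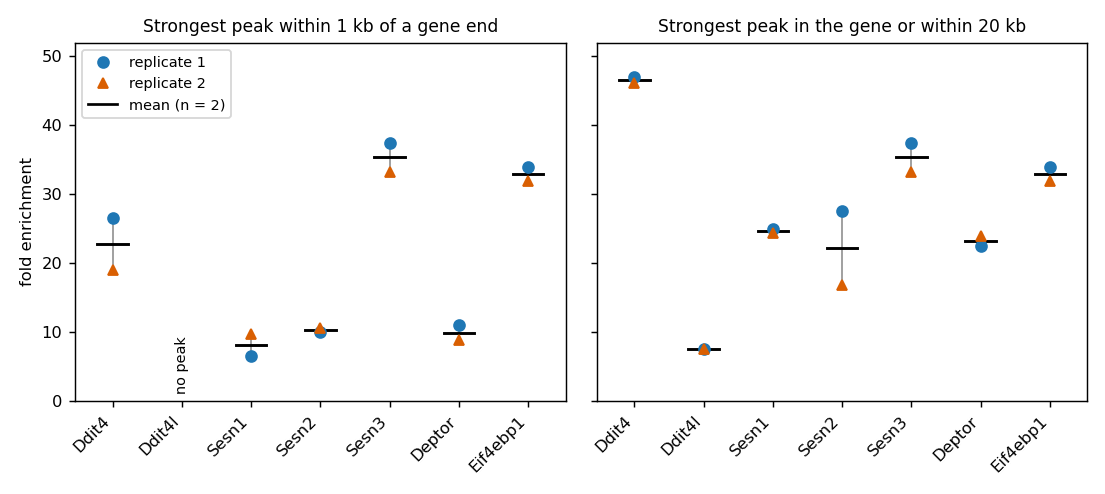
Fold enrichment of the strongest peak of each gene in replicate 1 (circles) and replicate 2 (triangles), with the mean of both as a bar, for peaks within 1 kb of a gene end (left) and for peaks in the gene or within 20 kb (right). Ddit4 at its gene end (26.5 and 19.1) and Sesn2 in the wider reach (27.5 and 16.8) show the widest gaps, and Ddit4l has no gene-end peak.

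Both replicates gave a gene-end peak at the same 6 members, all but Ddit4l. Over all genes the share was 48.2% in replicate 1, 50.2% in replicate 2 and 45.2% in both. In the wider reach every one of the 7 genes had a series-wide peak, against 68.2% of all genes, and 6 of the 7 had one among the 20% of highest fold, against 26.4%. Ddit4l was the exception, and Sesn2 was among the 6 through replicate 1 alone (27.5, against 16.8 in replicate 2). Among 46 other genes of the mTORC1 pathway, described below, 42 had a gene-end peak in both replicates. A series-wide peak in reach was also present at 42 of the 46, and 23 had one among the 20% of highest fold. The difference between the members and these genes was not tested. Longer genes offer more room for peaks, and the members range from 2.10 kb to 147 kb around a median of 17.1 kb for all genes.

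The 7 genes had 25 series-wide peaks in reach, of which 6 lay at gene ends, 11 inside genes and 8 in the flanks. All 25 had a peak in both replicates, as did 40643 of the 41639 series-wide peaks. That list was made from both pull-down samples, so such overlap follows largely from how it was made. Their median fold was 16.8, against 13.7 over the whole series-wide list, and 9 of the 25 (36%) were among the 20% of highest fold. The peaks were also wider, with a median of 647 bp against 441 bp. Over the 25 peaks the ratio of replicate 2 to replicate 1 ranged from 0.598 to 1.43 with a median of 0.981. Of the 25, 13 were lower in replicate 2, as were 45.4% of all peaks in both. The series-wide summit equalled that of a replicate at 23 of the 25 peaks. The member was also the nearest protein-coding gene at 23, and the exceptions were the outermost peaks of Ddit4 and Sesn2. Nearness follows in part from the assignment, since the peaks at gene ends and inside genes overlapped the member. Shares over all series-wide peaks are not given for these 2 counts.

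Not every replicate peak had a partner in the other list. The replicate lists held 51 peaks of replicate 1 and 63 of replicate 2 in reach of a member. Of these, 41 (80.4%) and 39 (61.9%) overlapped a peak of the other replicate, against 81.2% and 72.1% over the whole lists. Peaks absent from the series-wide list numbered 24 and 38, with median folds of 6.50 and 6.65, and 2 in each replicate reached 10. In replicate 2 these were at Deptor, at 12.4 inside the gene and 11.1 in its flank, and replicate 1 had no peak at either place. In replicate 1 both were in Sesn1, at 15.5 (described above) and at 10.5.

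**Figure D3:**
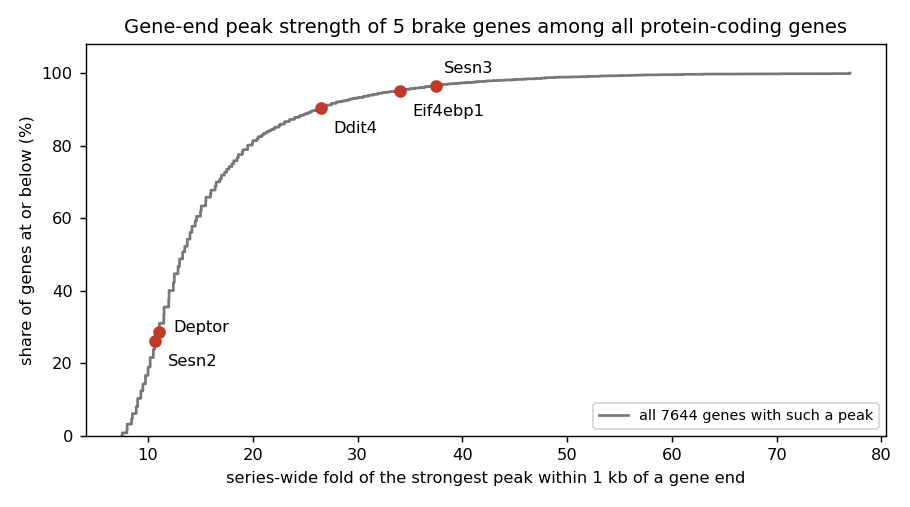
Cumulative share of the 7644 protein-coding genes with a gene-end peak in the series-wide list (vertical axis, %) by the fold of their strongest such peak (horizontal axis), with the 5 members that have one as red points. Sesn3, Eif4ebp1 and Ddit4 sit near the top of the curve at 37.5, 34.0 and 26.5, and Deptor and Sesn2 sit near 11.0 and 10.6.

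Other genes had gene-end folds close to those of each member in both samples. Likeness was the distance between log2 folds over the 2 samples, among 9900 genes with a peak in both. The nearest to Sesn3 were Zfp146 (38.0 and 33.2, distance 0.019) and Ankrd40 (37.0 and 32.8, distance 0.027), and the nearest to Eif4ebp1 were Slc26a9 (33.5 and 31.9, distance 0.021) and Rpl8 (33.5 and 32.4, distance 0.029). Nfatc2ip had the same pair of folds as Ddit4, and Cdk20 followed at 0.027. At the low folds of the other members the values are coarse and many genes tied at a distance of 0: 18 with Sesn1, among them Ahnak and, through the same peaks, its neighbour Cep57l1, 25 with Sesn2, among them Bend3 and Casc1, and 20 with Deptor, among them Anapc5 and Chchd1.

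The rest of the mTORC1 pathway also carried gene-end peaks at most of its genes. Of 47 other pathway genes 46 matched the annotation, and 36 of them (78.3%) had a series-wide peak at a gene end, against 34.9% of all genes. Their median fold was 12.9, near the 13.3 of all genes with such a peak, and 5 of the 46 had one among the 20% of highest fold, against 5.66% of all genes. The members' counts were 5 of 7 and, in the top 20%, 3 of 7, and the difference from the pathway was not tested. The folds of Sesn3 and Eif4ebp1 were above those of all 36 pathway genes with a peak, and that of Ddit4 was below those of Rps6, Akt1s1 and Tbc1d7. No test of a list was made.

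Among other mTORC1 brakes, 8 of 12 genes had a series-wide peak at a gene end, and all 12 had a gene-end peak in both replicate lists. Akt1s1, which encodes the mTORC1 inhibitor PRAS40, had 29.5 in replicate 1 and 27.0 in replicate 2, from a peak that also lay at Tbc1d17. Tbc1d7, a subunit of the TSC complex, had 27.5 and 25.7, and Kptn, of the KICSTOR complex, had 15.5 and 18.6. In reach, Tbc1d7 had a series-wide fold of up to 62.9, above that of every member. Castor1, an arginine sensor, and Depdc5, of GATOR1, had no series-wide peak at a gene end, although both replicates had a peak between 6.0 and 7.98 there.

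Activators that pass on amino acid signals had a series-wide gene-end peak at 16 of 19 genes, and 17 had one in both replicate lists. Flcn, the folliculin gene, had 17.0 and 26.2 in replicates 1 and 2, its partner gene Fnip2 had 10 and 18.6, and Rraga, which encodes a Rag GTPase, had 19.0 and 23.9. All 3 were higher in replicate 2. Lamtor4 and Rragb had no series-wide peak at a gene end. Lamtor4 had 1 there in each replicate list, at 7.0 and 7.09, and Rragb had none in either.

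The subunits of mTOR complexes had a peak at 4 of 5 genes, all of them under the top 20%. Mlst8 had 15.0 and 16.4 in replicates 1 and 2, Rptor had 11.5 and 14.2, Mapkap1 had 9.5 and 10.6, and Rictor had none at a gene end. Of the effectors, 8 of 10 had a series-wide gene-end peak, and 9 had one in both replicate lists. Rps6, which encodes a ribosomal protein phosphorylated downstream of mTORC1, had 33.0 and 28.4, Rps6kb2, an S6 kinase gene, had 19.5 and 16.8, and Tfeb, a lysosomal transcription factor gene, had 16.5 and 10.2. The Rps6kb2 peak also lay at Carns1. Eif4g1 and Larp1 had no series-wide peak at a gene end, and Larp1 had 3 in reach, the highest at 16.4. At a gene end of Eif4g1 the replicate lists had peaks at 8.5 and 7.54, and Larp1 had none in either.

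**Figure D4:**
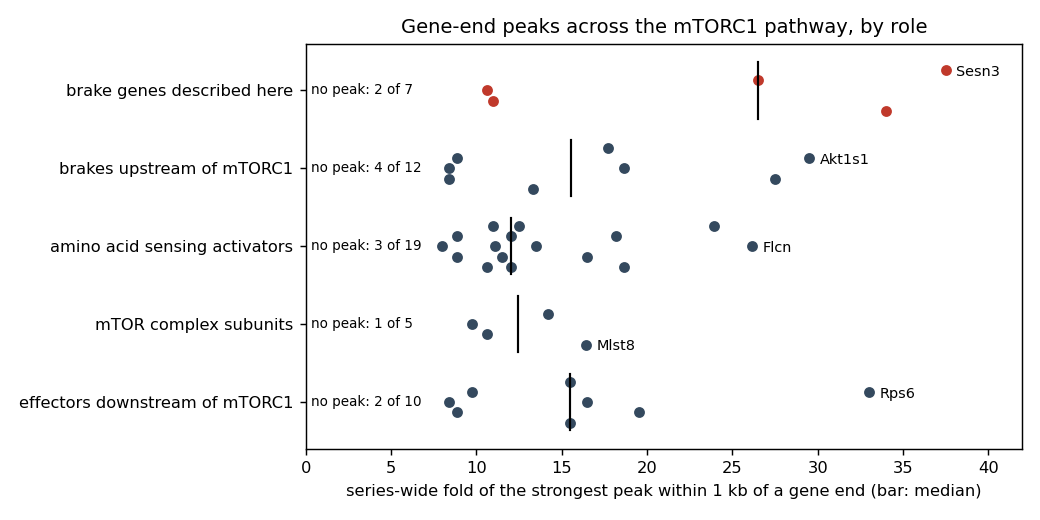
Series-wide fold of the strongest peak within 1 kb of a gene end (horizontal axis) for the members (red) and 46 other mTORC1 pathway genes by role (dark), with a bar at the median of genes with a peak and the number without one at the left. Sesn3 at 37.5 is the highest point, followed by Eif4ebp1 at 34.0 and Rps6 at 33.0.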

How the data were processed

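ATF4 pull-down was represented by 2 samples with a peak list each and by a list for the series. The submitters' processing notes list Bowtie2, MACS2 and deepTools as tools and mm10 as the build. What each tool did is not given in the sources used here. The series-wide list gives the authors' deposited fold enrichment per peak. The replicate lists give a deposited −log10 p-value or q-value, and the values do not tell these apart. Replicate peaks were given folds through those identical to a series-wide peak (17420 in replicate 1, 21053 in replicate 2), since a −log10 value goes with 1 fold. At 6 of them in replicate 2 it did not, and the commonest fold was kept. Folds under 7.5 (replicate 1) and 7.54 (replicate 2) continue the steps of 0.50002 and 0.44326 downwards; this concerns 18 of 51 and 29 of 63 member peaks. The series-wide fold is the higher of the replicate folds at each member peak. Folds were not scaled between replicates, and depth is unknown, so no counting interval is given.

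Peaks were assigned by an overlap of at least 1 bp. Coordinates are 1-based. Of 47 pathway genes, Kics2 did not match a symbol. Gene models carry no exons, so exons and introns were not told apart, and sequences come from RefSeq, GRCm38.p6. No column was left unmapped (0). Members, lists and the motifs fixed at the outset were chosen with earlier results of these data known. All 7 members are described; pathway genes named are up to 3 of highest fold and the first 2 in alphabetical order without a peak in each role, and genes of like fold are the 2 nearest. No test across samples could be made with 2 samples of 1 group. Overlap counting was tested on simulated peaks. Alternatives were a window of 5 kb, annotated starts only, peak midpoints, the top 20% of peaks, a reach of 10 kb or 50 kb, the nearest gene only, an overlap of 50% between replicates, 1 mismatch in motifs and each replicate alone. Calculations used pandas 2.3.3 with NumPy 2.4.6 and SciPy 1.17.1 under Python 3.11.15, and figures were drawn with Matplotlib 3.10.9.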

Additional observations from a re-analysis of the deposited data

How the results depend on the processing

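Counts of members at gene ends and in reach stayed within 1.5 times the reported count under every alternative but the top 20% of peaks by fold. That setting left 3 members and 5 pathway genes with a gene-end peak, lowered the share of all genes at gene ends to 5.66%, and lowered the share of all genes in reach to 26.4%. Which members were counted did change. Ddit4l was added with a window of 5 kb. With annotated starts only, Sesn1 was added, and Deptor and Eif4ebp1, which have no start in the table used, were not counted. Sesn1 was added in each replicate alone, and Sesn1 was lost (5 in place of 6 members in both replicates) when replicate peaks had to overlap by 50% of each. With a window of 5 kb the strongest fold of Sesn2 was 27.5 in place of 10.6, since its upstream peak then fell in the window. With 1 replicate left out at a time, the strongest gene-end fold ranged from 19.1 to 26.5 at Ddit4, 10 to 10.6 at Sesn2, 33.2 to 37.5 at Sesn3, 8.87 to 11.0 at Deptor and 31.9 to 34.0 at Eif4ebp1. Over these settings the members counted ranged from 6 to 6 at gene ends and 7 to 7 in reach, the pathway genes from 42 to 42, and the shares of all genes from 48.2% to 50.2% and from 78.0% to 79.2%. Members whose promoter held a searched motif rose from 0 to 1 with 1 mismatch, and to 4 with CCAAT, which was chosen after seeing the data and occurs in 37.4% of all promoters. Ddit4l and Sesn1 have no reported gene-end fold to compare. No paired analysis was possible because the input samples that share replicate numbers with the pull-down samples have no values here. Depth is unknown, so a peak missing from a list shows only that this list does not hold it. A gene without a series-wide peak could still have replicate peaks. In both replicate lists 42 pathway genes had a gene-end peak, against 36 in the series-wide list.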
